A study of Mus musculus with 4 samples.

Results

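The 38 genes described here sense foreign or misplaced nucleic acids, carry the type I interferon signal or are switched on by it. They were chosen as the rows of the deposited count table whose Entrez gene number maps to a fixed list of mouse symbols, and all 38 were found among 24116 counted genes. RNA-seq libraries had been made from mouse embryonic stem cells (ESCs, strain label 12910la), grown on gelatin in serum medium with the cytokine LIF. There were 2 libraries of wild-type cells and 2 of a Kdm2a knockout line, made with a guide RNA and expanded from a single GFP-sorted clone. The titles of those samples say knockout and their genotype label says knocked down. Kdm2a encodes a demethylase of histone H3 lysine 36, and the comparison asks how genes respond to its loss. With a single clone, differences due to the clone and to the genotype cannot be told apart.

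Cells detect viral or misplaced RNA with cytosolic helicases (RIG-I, MDA5 and LGP2), and in endosomes with TLR3. RIG-I and MDA5 signal through the adaptor MAVS, while the DNA sensor cGAS signals through STING, and both routes induce interferon. Secreted interferon binds its receptor, activates the kinases JAK1 and TYK2 and a complex that holds STAT2 and IRF9, and this complex switches on interferon-stimulated genes through a DNA element called ISRE. Pluripotent cells are known for a weak interferon response and for a steady level of some antiviral effectors without interferon, among them IFITM proteins.

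All 4 libraries held 18844246 to 19056529 counts. Kdm2a itself gave 2899 and 3554 counts for wild type and 3710 and 4753 for the samples labelled knockout (log2 fold change 0.44, SE 0.24). Its RNA was thus not lower there, and directions rest on the labels. Knockout 2 was the lowest of the 4 libraries for 33.4% of tested genes and the highest for 33.6%. The member median and some of the genes that rest on it are also given without it. All 10 stem cell markers (Pou5f1, Nanog, Sox2, Esrrb, Zfp42, Klf4, Tdgf1, Dppa5a, Utf1, Fgf4) had mean levels of 297 to 1100 CPM, read counts scaled to library size with TMM, a correction for library composition. Of 10 blood and macrophage markers, 6 had at most 3 counts in every library, Lyz2 and Adgre1 had none, and Ptprc had 1 count in knockout 2 only. Their summed level was 28.4 to 54.6 CPM (wild type) and 23.9 to 100 CPM (labelled knockout), with most of it from Cd68 (841 and 362 counts against 330 and 1744). The other tested markers of that list were lower in both libraries labelled knockout, Itgam with 47 and 42 against 16 and 13 counts and Cd74 with 151 and 135 against 111 and 57. Fibroblast markers summed to 39.8 to 91.4 CPM and 32.8 to 65.3 CPM in that order. Most of it came from Thy1 and Pdgfrb (means of 25.4 and 24.2 CPM), and 4 of these 10 markers had at most 3 counts in every library. Endothelial markers, of which Pecam1 is also made by ESCs, summed to 193 to 213 CPM and 139 to 179 CPM. The part of such cells in the results was not tested, and in bulk RNA fewer cells of a type and less RNA per cell cannot be told apart.

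The ISRE core is shown here because genes that carry it at their start were found at both ends of the range of levels in these cells. The core, GAAA and GAAA with any 2 bases between them, was searched on both strands in the 250 bases before each start in a table of RefSeq promoters (GRCm38.p6). Of the 38 genes, 32 had such a window and 9 of these held a match, or 28.1%, against 3.46% of the 27025 genes in the promoter table. Among 106 other pathway genes with a window, 31 held one. Dhx58, Tmem173, Zbp1, Mx1, Mx2 and Usp18 had no window. Sequences are written 5′ to 3′ on the strand of the gene, with the match or run of overlapping matches in capitals. TTTC runs are matches on the other strand.

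Isg15, chr4:156200865-156200906, minus strand: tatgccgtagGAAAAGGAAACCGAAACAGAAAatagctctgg
Ifit1, chr19:34640794-34640823, plus strand: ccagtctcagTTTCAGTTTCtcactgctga
Ifit3, chr19:34583397-34583426, plus strand: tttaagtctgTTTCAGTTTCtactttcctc
Rsad2, chr12:26456553-26456582, minus strand: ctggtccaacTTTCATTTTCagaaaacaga
Oas1a, chr5:120907526-120907555, minus strand: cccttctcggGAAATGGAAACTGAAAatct
Stat2, chr10:128270266-128270295, plus strand: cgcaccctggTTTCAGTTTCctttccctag
B2m, chr2:122147538-122147567, plus strand: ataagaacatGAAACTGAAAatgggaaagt
Bst2, chr8:71537577-71537612, minus strand: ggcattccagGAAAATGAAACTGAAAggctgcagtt
Ifitm2, chr7:140955988-140956017, minus strand: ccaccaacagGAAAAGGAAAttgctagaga

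The run of Isg15 held 3 overlapping matches and lay 78 to 57 bases before the start. Ifit1 and Ifit3 each held 2 separate matches, of which the one nearer the start is printed. The starts used for Ifitm2, Ifit3 and Oas1a lie inside wider RefSeq gene spans, so their matches are upstream of that start and not of the whole gene. Of the 9 genes, Isg15, Ifit1, Ifit3 and Rsad2 did not pass the filter on low counts. The other 5 ranged from 2.41 CPM per kilobase of merged exon for Oas1a to 476 for Ifitm2. Genes with a window and no match also spanned the levels, from 0 for Ifih1 to 125 CPM per kilobase for Ifitm1. Of these, 18 were tested and 5 did not pass the filter. A match is a description of the letters and not evidence of a bound site.

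RNA of the interferon genes themselves was almost undetectable at this depth. Of 21 ligand genes (Ifnb1, the Ifna family, Ifne, Ifnk, Ifnz, Ifng, Ifnl2 and Ifnl3), 20 had 0 counts in all 4 libraries, and Ifnl2 had 1 count in knockout 2. A count of 0 allows up to 3 counts, or 0.156 to 0.165 CPM depending on the library. Such limits cover counting error alone, because PCR duplicates were not told apart from independent molecules. Reads that match several ligand genes are not covered either. Their treatment was not given, and shared stretches were not searched for the ligand genes.

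Classic interferon-stimulated genes differed in level. Ifit2 (41 and 44 counts in wild type against 42 and 25) and Oas1a (87 and 60 against 64 and 130) passed the filter on low counts. Most of those that did not pass were at or near 0 in wild type and in the libraries labelled knockout alike. Isg15, a ubiquitin-like modifier, had no count in wild type, against 1 and 2. Ifit1, which binds foreign RNA ends, had 0 and 2 against 0 and 3, and its relative Ifit3 had none in any library. Of the 50-base stretches of Ifit3 transcripts, 51.2% occur in other genes, most often Ifit3b, so its 0 is less certain. Ifit3b also had 0 counts in every library. The dynamin-like antiviral GTPases were no higher, with 1 and 3 against 0 and 2 counts for Mx1 and 0 and 0 against 2 and 1 for Mx2. Usp18, which removes ISG15 from proteins, had 0 and 4 counts in wild type and none in the others. Oasl2, an OAS-like protein, had 2 and 2 against 4 and 2 counts. Rsad2, which encodes viperin, had 6 and 8 against 5 and 19, so knockout 2 was the highest and knockout 1 the lowest library. Among the remaining untested genes Irf7, the factor that amplifies interferon induction, had 7 and 3 against 2 and 0 counts. Psmb8, an immunoproteasome subunit, had 1 and 1 against 0 and 0. In all, 12 of the 38 genes did not pass the filter on low counts, and together their counts summed to 21 and 34 (wild type) and 19 and 35 (labelled knockout). Of these 12 genes, 7 never exceeded 3 counts.

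**Figure D1:**
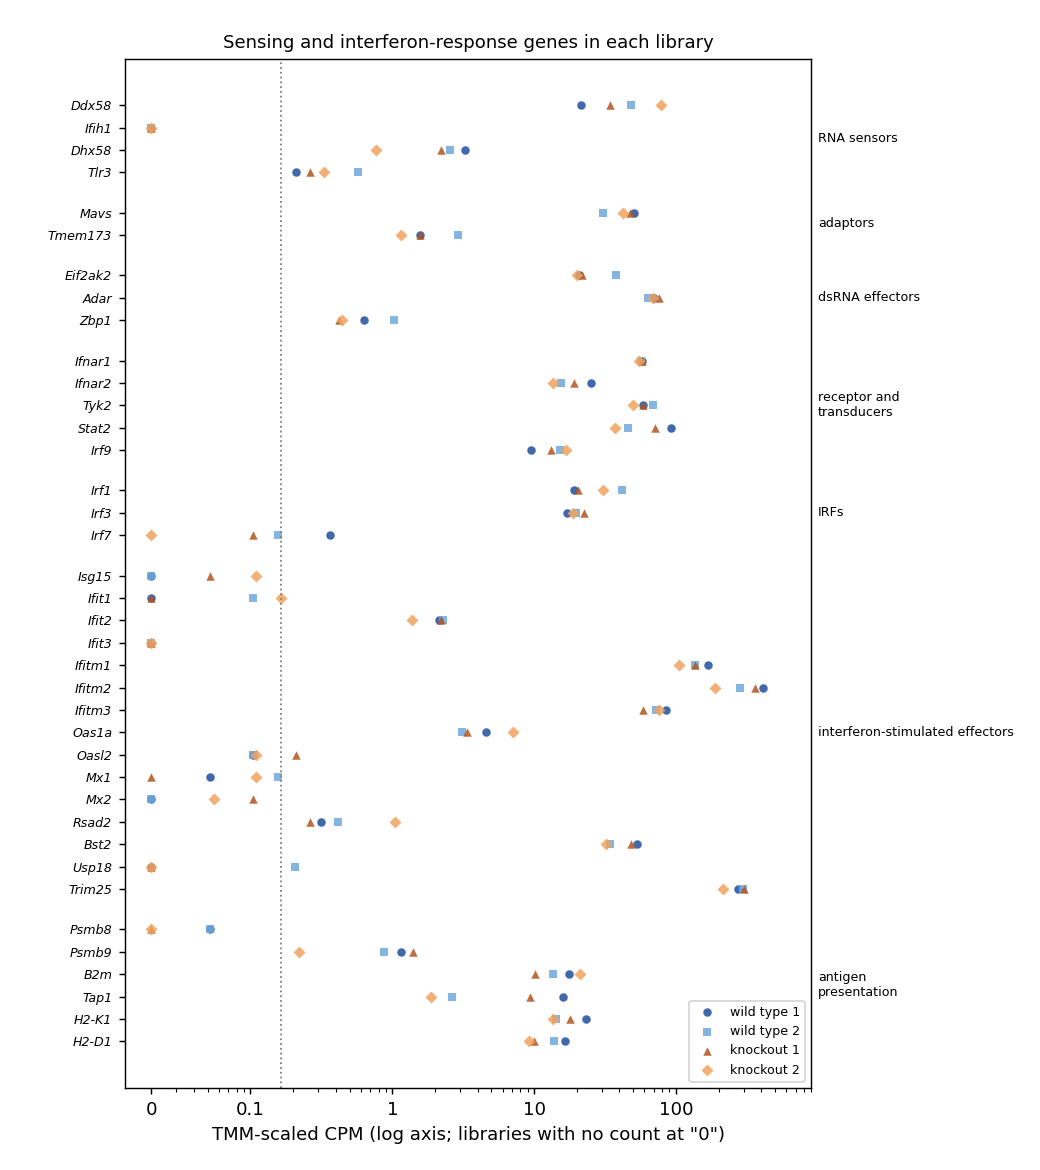
Level of each of the 38 genes in each library, in TMM-scaled CPM on a log axis, with libraries without a count placed at the mark 0. The dotted line is the highest level that 0 counts allow, 0.165 CPM. Points run from 0 in all 4 libraries (Ifih1, Ifit3) to above 100 CPM in all of them (Ifitm1, Ifitm2, Trim25).

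A second group of effectors was abundant. The 3 IFITM genes, which encode membrane proteins that hinder virus entry and lie near each other on chromosome 7, led the order of levels per length, though Ifitm1 and Ifitm3 overlapped in range. Ifitm2 (chr7, 140954837 to 140959686) reached 626 and 435 CPM per kilobase for wild type and 555 and 289 for the samples labelled knockout. Ifitm1 had 155 and 125 against 124 and 96.0, and Ifitm3 had 125 and 108 against 86.4 and 111. Trim25, a ubiquitin ligase that activates RIG-I, and Bst2, which encodes tetherin, followed at means of 47.2 and 46.6 CPM per kilobase over the 4 libraries. Their ranges overlapped, so these neighbours are not ordered. Lengths are merged GENCODE M21 exons, which may differ from those the counts used, and 40.9% of the Ifitm2 exons overlap the gene Gm45717 on the same strand. Of the 50-base stretches of Ifitm2 transcripts, 48.5% occur in another gene, against 5.02% for Ifitm1 and 10.0% for Ifitm3, so the Ifitm2 level is uncertain.

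**Figure D2:**
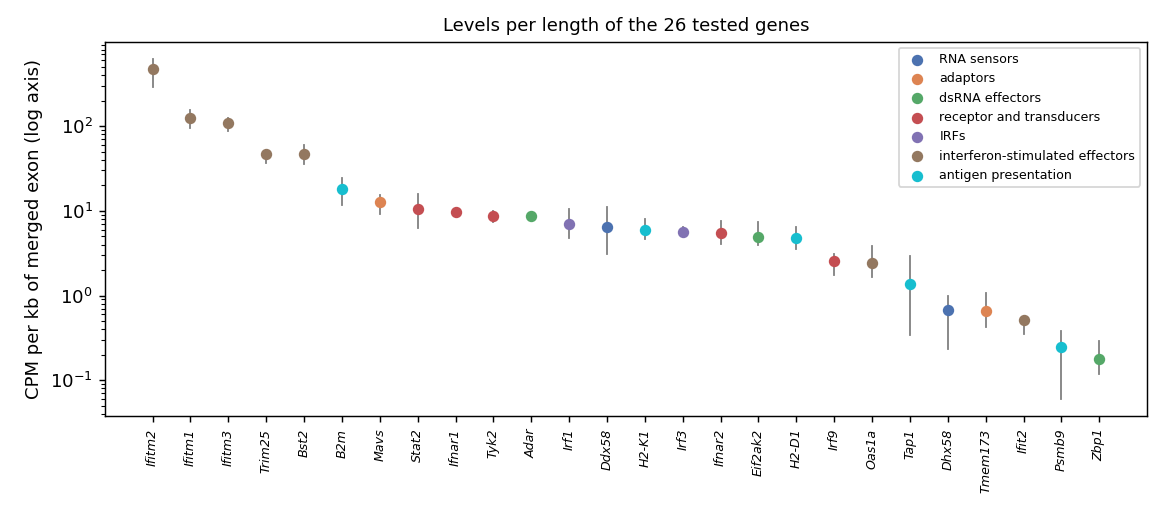
CPM per kilobase of merged exon on a log axis for the 26 tested genes, in falling order of the mean of the 4 libraries. Points are means, coloured by role, and lines span the lowest to the highest library. Ifitm2, Ifitm1 and Ifitm3 lead, and Zbp1 is last at 0.179.

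Of the 26 genes that passed the filter, none passed the test for a difference between the groups. The edgeR quasi-likelihood test called 0 of them at an adjusted p under 0.05 (background 0% of 14194 genes), and the lowest adjusted p was 1.00. At an unadjusted p under 0.05 it also gave 0, where the background was 1.7%. DESeq2 (background 0.0141%) and limma-voom called 0 of them too. The libraries of the 2 groups did not overlap for 6 of the 26 (23.1%), each lower in the libraries labelled knockout, against a background of 12.7% lower and 11.7% higher, or 24.4% in either direction. These were Dhx58, Tmem173, Zbp1, Tyk2, Ifitm1 and H2-D1, and with other scalings the number was 4 to 8. The 95% interval of the log2 fold change lay within 1 in either direction for 9 of the 26 (Mavs, Adar, Ifnar1, Tyk2, Irf3, Ifitm1, Ifitm3, Bst2 and Trim25), so a change beyond 2-fold lies outside it for these. For the other 17 such a change lies within the interval. The gap between the wild-type libraries was larger than the fitted difference for 17 of the 26 genes, against 64.4% of all tested genes.

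Fold changes were mostly negative, and their median was nearest to 0 without wild type 1 or without knockout 2. The median log2 fold change was -0.26 over the 26 genes, with 20 negative and 6 positive, whereas over all tested genes it was 0.0029, with 49.5% negative. Relative to the wild-type mean, the median was -0.023 in knockout 1 and -0.42 in knockout 2, while the wild-type libraries lay at 0.12 and -0.12. Knockout 2 was the lowest of the 4 libraries for 16 of the 26 genes, or 61.5%, against 33.4% of all tested genes, and knockout 1 was within the wild-type range for 14 (background 48.3%). The median was -0.072 without knockout 2, -0.038 without wild type 1, -0.19 without wild type 2 and -0.44 without knockout 1. These refits filtered the genes anew and held 27 or 28 members instead of 26. Each shift was smaller than the SD of the member median between libraries of a group, 0.23. Only in knockout 2 was the median below that of both wild-type libraries.

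**Figure D3:**
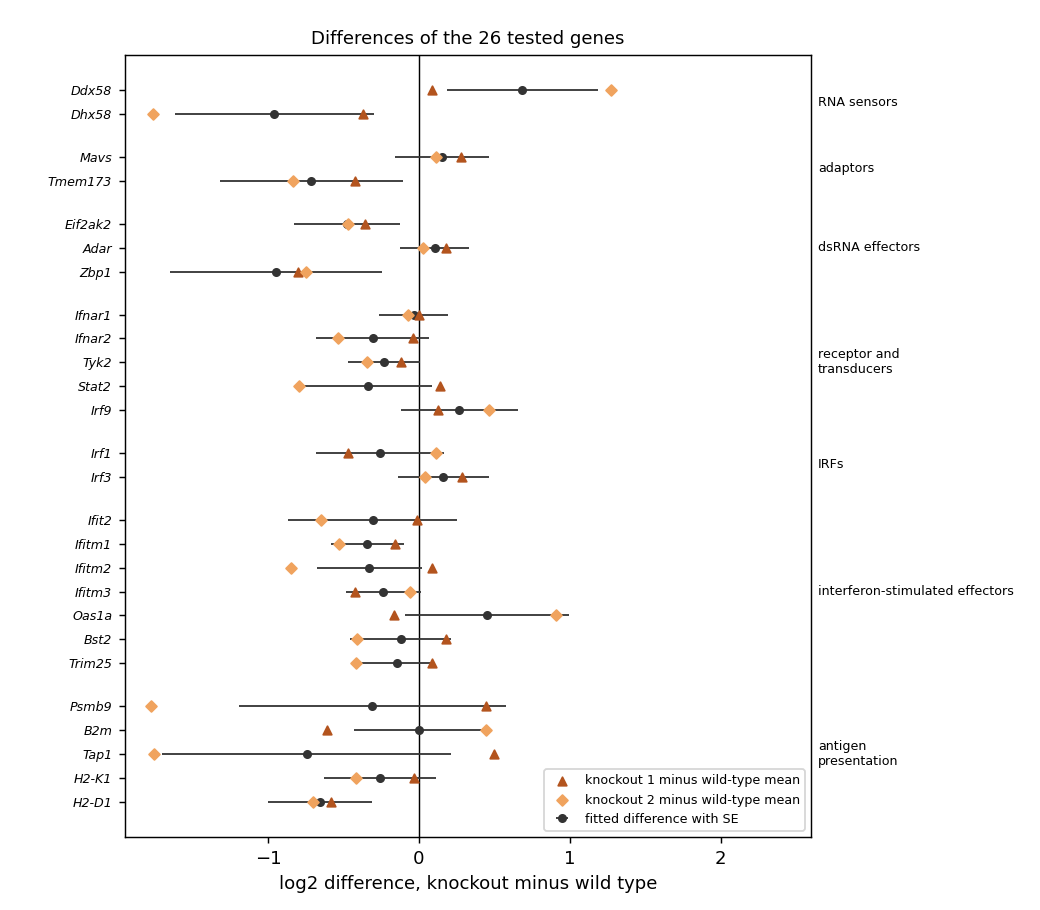
Log2 difference between the libraries labelled knockout and wild type for the 26 tested genes, by role. Black points with bars are the fitted values with SE, triangles knockout 1 and diamonds knockout 2, each minus the wild-type mean of log2 CPM. The diamonds reach from -1.77 (Psmb9) to 1.27 (Ddx58) and the triangles from -0.81 (Zbp1) to 0.49 (Tap1).

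Among the RNA sensors, Ddx58, which encodes RIG-I, was the one with a sizeable level. Its counts were 412 and 935 against 658 and 1421 (log2 fold change 0.68, SE 0.50); wild type is given first throughout. Both libraries numbered 2 were above both numbered 1, so the groups overlapped. Without knockout 2 its value turned to -0.028. Ifih1, which encodes MDA5, had 0 counts in all 4 libraries. Dhx58, which encodes LGP2, had 62 and 49 counts against 42 and 14 (log2 fold change -0.96, SE 0.66), so both libraries labelled knockout were below wild type, knockout 2 far more than knockout 1. Tlr3 had 4 and 11 against 5 and 6 counts and was not tested. Of these sensors, RIG-I RNA was thus present while MDA5 RNA was not detectable at this depth.

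The adaptor Mavs was well represented, with 975 and 587 counts against 914 and 775 (log2 fold change 0.15, SE 0.31), and knockout 1 and 2 were both within the wild-type range. Tmem173, which encodes STING, was low, with 30 and 56 against 30 and 21 counts (-0.71, SE 0.61). Knockout 1 had the same 30 counts as wild type 1, and the groups were apart there by scaling alone. Per length, Mavs averaged 12.8 and Tmem173 0.656 CPM per kilobase.

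Of the effectors that act on double-stranded RNA, Adar, the enzyme that edits adenosine to inosine, differed least between libraries. It had 1344 and 1235 counts against 1451 and 1245 (log2 fold change 0.10, SE 0.23), though 16.8% of its exons overlap Chrnb2 on the other strand. Eif2ak2, which encodes the kinase PKR that halts translation, had 400 and 728 against 419 and 368 (-0.48, SE 0.35). Wild type 2 stood above the other 3 libraries there, and without it the value was 0.019. Zbp1, a sensor of Z-form nucleic acids, had only 12 and 20 counts against 8 and 8 (-0.95, SE 0.70), with both libraries labelled knockout lower.

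The receptor and its transducers were all expressed. Ifnar1, a chain of the interferon receptor, was almost level, at 58.1 and 57.1 against 57.5 and 54.8 CPM, with a 95% interval of the log2 fold change from -0.57 to 0.50. Its partner chain Ifnar2 had 480 and 301 counts against 368 and 248 (-0.31, SE 0.37). Tyk2, the receptor-bound kinase, had 1131 and 1320 counts against 1123 and 909 (-0.23, SE 0.24). The groups did not overlap for Tyk2, although knockout 1 was barely below wild type 1. Stat2 had 1769 and 881 against 1371 and 681 counts (-0.34, SE 0.43), so the libraries numbered 2 had the lower levels in both groups. Irf9, the DNA-binding partner of STAT2, had 182 and 295 against 252 and 304 (0.27, SE 0.39). Without wild type 1 the values were 0.26 for Stat2 and -0.034 for Irf9, so both directions turned.

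Of the interferon regulatory factors, Irf3, which MAVS and STING activate, had 327 and 381 counts against 428 and 343 (log2 fold change 0.16, SE 0.30), with overlapping groups. Irf1, an interferon-inducible activator of antigen presentation genes, had 366 and 799 against 388 and 553 (-0.26, SE 0.42). Its highest library was wild type 2, and the value was 0.41 without it.

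The effectors that passed the filter were 7 of 15, and 6 of the 7 had negative values. For Ifitm1 all 4 libraries were high (3239 and 2627 counts against 2601 and 1911), with a mean of 153 ± 23.4 CPM for wild type against 121 ± 21.8 CPM (SD, n = 2 each). The groups of Ifitm1 were separate (-0.34, SE 0.24), though by a narrow gap between wild type 2 and knockout 1. Ifitm2 had 7843 and 5496 against 6958 and 3447 counts (-0.33, SE 0.35), and without knockout 2 the value was 0.071. Ifitm3 had 1623 and 1407 against 1121 and 1372 (-0.24, SE 0.25), here with knockout 1 as the lowest library. Bst2 had 1024 and 659 against 929 and 584 (-0.12, SE 0.34), and Trim25 had 5246 and 5715 against 5803 and 3878 (-0.14, SE 0.24), so only knockout 2 was below wild type for Trim25. Ifit2, a relative of Ifit1, had 41 and 44 against 42 and 25 counts (-0.31, SE 0.56). Oas1a, which makes the second messenger of RNase L, had 87 and 60 against 64 and 130 (0.45, SE 0.54), and 57.6% of its 50-base stretches occur in other genes, most often Oas1g.

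Antigen presentation genes had the lowest median in knockout 2. Over the 5 tested it was -0.70 there and -0.036 in knockout 1, with 0.20 and -0.20 in the wild-type libraries. Tap1, a subunit of the peptide transporter, varied most, with 308 and 51 against 178 and 34 counts (log2 fold change -0.74, SE 0.96). The libraries numbered 2 were low in both groups, and the value moved from -2.32 to 1.08 as single libraries were left out. Psmb9, an immunoproteasome subunit whose RefSeq start (chr17, 34187330) lies 225 bases from that of Tap1 on the other strand, had 22 and 17 against 27 and 4 counts (-0.31, SE 0.89). Its level was low in knockout 2 alone. In the GENCODE M21 models 5.79% of Psmb9 exons overlap Tap1 on the other strand, and 3.87% of Tap1 exons overlap Psmb9. H2-D1, a class I heavy chain, had 317 and 266 against 192 and 168 (-0.66, SE 0.35), lower in both libraries labelled knockout, with the lowest unadjusted p among the tested members in edgeR. H2-K1, the other heavy chain, had 447 and 277 against 342 and 249 (-0.26, SE 0.37). Of the 50-base stretches, 12.8% of H2-D1 and 9.63% of H2-K1 occur in other genes, so reads may be split between class I copies. B2m, their light chain, had 340 and 261 against 194 and 385 counts (-0.0002, SE 0.43), and the libraries labelled knockout lay on either side of wild type.

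**Figure D4:**
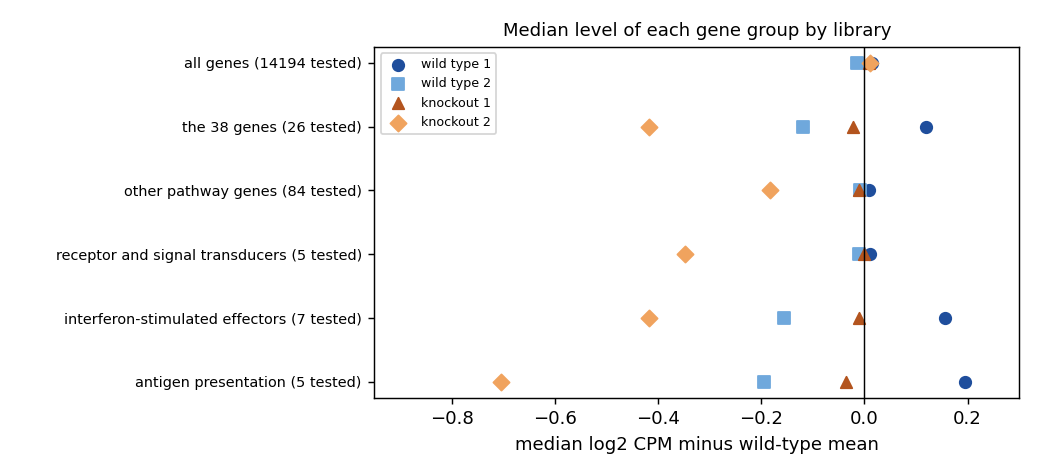
Median over the tested genes of each group of log2 CPM minus the wild-type mean, 1 point per library. Over all genes the 4 points lie within -0.014 to 0.014, whereas knockout 2 lies at -0.42 for the 38 genes and at -0.70 for antigen presentation, and knockout 1 stays at -0.023 and -0.036.

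Other genes of these pathways gave no call either. Of 132 such genes, 84 were tested and 0 were called by edgeR, DESeq2 or limma-voom. Their median log2 fold change was -0.10, with 56 negative (66.7%, background 49.5%), 8 separated lower and 8 separated higher (9.52% each, background 12.7% and 11.7%). At an unadjusted p under 0.05 (background 1.7%) there were 4 of the 84, named here after their values were seen: Traf6, a signalling ligase (600 and 629 against 821 and 1516 counts), and Pml, the scaffold of nuclear bodies (3378 and 3176 against 5136 and 4287), were higher. Tapbpl, a tapasin relative (26 and 23 against 55 and 67), was also higher, and Parp12, an interferon-induced ADP-ribosyltransferase (207 and 385 against 157 and 121), lower. None of these passed adjustment in edgeR (adjusted p = 1.00).

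By role, the most abundant tested genes of each list had these log2 fold changes. Among receptors and transducers, 4 of 9 tested were positive, with Jak1 at -0.25 (SE 0.24) and Irf5 at -0.13 (SE 0.28). Among sensing and adaptor genes, 3 of 13 were positive, with Traf6 at 0.98 (SE 0.35), the CpG-RNA binding protein gene Zc3hav1 at -0.023 (SE 0.36) and the IRF3 kinase gene Tbk1 at -0.021 (SE 0.26). Among genes that clear nucleic acids, 2 of 10 were positive, and Dicer1, Rnaseh2a and Samhd1 lay at -0.018 (SE 0.20), -0.12 (SE 0.28) and -0.16 (SE 0.29). Negative regulators had 4 of 10 positive, with Socs3, a brake on JAK signalling that LIF also induces, at -0.27 (SE 0.32), Ptpn11 at 0.056 (SE 0.21) and Pias4 at 0.13 (SE 0.24). Of the other interferon-stimulated genes, 28 of 46 were tested and 13 were positive, with Pml at 0.56 (SE 0.21), the lysosomal reductase gene Ifi30 at 0.020 (SE 0.42) and Xaf1 at 0.14 (SE 0.38). The other antigen presentation genes had 2 of 14 positive, with the chaperone genes Calr and Pdia3 at -0.21 (SE 0.30) and -0.11 (SE 0.21) and Psme1 at -0.019 (SE 0.29), and their median was -0.33 in knockout 2 and -0.086 in knockout 1.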

How the data were processed

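The authors deposited whole-number read counts per Entrez gene, without normalization. HISAT2, featureCounts and the mm10 build are named in the submitters' processing notes. Versions, annotation, strand setting and treatment of multiply matching reads were not given in the sources used here. Symbols came from RefSeq GRCm38.p6, the assembly of mm10 (37 members by current symbol, Tmem173 by a synonym of Sting1). Groups and numbers came from the titles. As no label states separate cultures, the spread behind each p-value may be technical only.

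Genes kept by filterByExpr (14194) were scaled by TMM and tested with the edgeR 4.0.16 quasi-likelihood test (R 4.3.3) in a model of genotype, with Benjamini-Hochberg adjustment over all genes tested and a threshold of 0.05. Positive log2 fold changes mean higher in knockout, and SE is the absolute value divided by the square root of F. Log2 CPM used a prior count of 2. Groups are separate when both libraries labelled knockout had CPM above both wild-type values, or below both. Alternatives were 3 scalings, 2 filters, DESeq2 1.42.0, limma-voom (limma 3.58.1), a replicate block and each library left out. The fit was tested on simulated data with the same spread setting for every gene, so that test does not cover the spread between these libraries. All 38 members are named. Of the 6 other pathway lists with tested genes, the 3 with the highest mean CPM are named, except 1 gene that is not reported here. Members and lists were chosen with earlier results of these data known. Merged exon lengths, exon overlaps and shared 50-base stretches came from GENCODE M21.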

Additional observations from a re-analysis of the deposited data

How the results depend on the processing

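With every alternative tried, 0 of the 38 genes and 0 of the other pathway genes were called. The count over all genes was 0 under 3 scalings, 2 filters, limma-voom and the replicate block, 2 with DESeq2, and 0 to 91 as single libraries were left out (91 without knockout 1, 8 without knockout 2). A lone library is there assumed to vary like the other group. The median of the tested members ran from -0.44 to -0.04 without single libraries. Libraries of equal number deviated together (r = 0.35 over 14194 genes and 0.57 over the 26 tested members), but 2 pairs without a stated batch do not show pairing. With the replicate block the member median was -0.24 and 735 genes had an unadjusted p under 0.05, against 242 without it. B2m turned to 0.0027 with RLE scaling and with DESeq2, and Ifi30 to -0.0314 with upper quartile scaling and -0.0292 with library totals. Leaving out single libraries turned these log2 fold changes, and the cause was not tested: Ddx58 (-0.028 to 1.39), Mavs (-0.17 to 0.57), Eif2ak2 (-0.84 to 0.019), Ifnar1 (-0.074 to 0.0012), Ifnar2 (-0.60 to 0.075), Stat2 (-0.89 to 0.26), Irf9 (-0.034 to 0.66), Irf1 (-0.71 to 0.41), Ifitm2 (-0.88 to 0.071), Oas1a (-0.19 to 0.90), Bst2 (-0.45 to 0.24), Trim25 (-0.42 to 0.091), Psmb9 (-2.18 to 0.48), B2m (-0.62 to 0.43), Tap1 (-2.32 to 1.08), H2-K1 (-0.56 to 0.14), Irf5 (-0.34 to 0.13), Zc3hav1 (-0.62 to 0.40), Tbk1 (-0.19 to 0.13), Dicer1 (-0.073 to 0.046), Rnaseh2a (-0.51 to 0.18), Samhd1 (-0.53 to 0.14), Socs3 (-0.73 to 0.080), Pias4 (-0.025 to 0.32), Ifi30 (-0.48 to 0.64), Xaf1 (-0.50 to 0.57), Calr (-0.57 to 0.30), Pdia3 (-0.23 to 0.037) and Psme1 (-0.33 to 0.24). The filter left out 12 members, and 36 of the 38 were tested when any count was enough.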
